A study of Mus musculus with 6 samples.

Results

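The genes described here are 56 regulators of pre-mRNA splicing in adult mouse cerebral cortex: 13 SR proteins and Tra2 relatives, 15 heterogeneous nuclear ribonucleoproteins (hnRNPs), and 28 genes of the Ptbp, Rbfox, Nova, Mbnl, Celf, Elavl, Srrm and STAR families, most of which are known for splicing in neurons. They were picked by name and family, with earlier results of these data known, from 55450 gene identifiers in the count tables, and all 56 were matched. The study measured polyadenylated RNA in 3 cortex libraries heterozygous for Setd5, a gene for a chromatin protein with a SET domain, and 3 wild type cortex libraries, all described as adult. The labels give no allele, strain, sex or exact age, and they do not say whether each library came from a separate animal. A p-value therefore refers only to how far these libraries spread, and that spread may in part be technical. The libraries are called heterozygous 1 to 3 and wild type 1 to 3 after the order of their records.

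Splicing removes introns from a transcript and joins its exons, and a gene can yield several messenger RNAs when an exon is included in some and skipped in others. SR proteins bind mainly exonic sequences and favour the use of nearby splice sites, whereas many hnRNPs and the polypyrimidine tract proteins favour exon skipping. In neurons the Rbfox, Nova, Mbnl, Celf, Elavl, Srrm and Khdrbs proteins set exons of synaptic, channel and cytoskeletal transcripts, and several of these proteins act on an exon in opposite directions depending on where they bind. Many splicing regulators also limit their own level, by splicing in an exon with a premature stop codon that sends the transcript to nonsense-mediated decay.

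None of the 56 splicing regulators differed between genotypes at an adjusted p under 0.05 in edgeR's quasi-likelihood test, fitted across 27939 genes, where 0% of all genes tested were called. Fitted differences were small. They ran from -0.20 for Nova2 to 0.23 for Srsf5 on the log2 scale, with a median of 0.04 and a median standard error (SE) of 0.08. The 95% intervals of the 56 genes, put together, reached from 73.2% to 134% of the wild type level. At an unadjusted p under 0.05, Srsf5 and Hnrnpu were higher in the heterozygous libraries, which is 2 of 56 (3.57%) beside 2.44% of all genes tested, and no regulator was lower, beside 3.38%. In Srsf1, Srsf10 and Hnrnpu all 3 heterozygous libraries lay above all 3 wild type libraries, which is 3 of 56 (5.36%) beside 5.88% of all genes tested. None lay wholly below, beside 5.85%. The share lying above was near that of all genes, and the share lying below was smaller than that of all genes. DESeq2, edgeR's likelihood ratio test, limma-voom and limma-voom with library quality weights called none of the 56 either, while over all genes they called 0.225%, 0.104%, 0% and 0.00716%.

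Setd5 checked the labels. It lies at chr6:113077365-113153435 on the plus strand of GRCm38. Its level was 69.5, 68.7 and 75.3 CPM (counts scaled to library size) in heterozygous 1 to 3 and 111, 97.0 and 108 CPM in wild type 1 to 3, so the groups did not overlap. The heterozygous mean was 71.2 ± 3.60 CPM against 105.2 ± 7.35 (SD, n = 3 each), or 67.7% of wild type (95% interval 60.6% to 75.6%), and the log2 difference was -0.56 (SE 0.07, edgeR adjusted p = 0.258).

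Library totals ran from 82850628 to 92860628 counts, and each of the 56 genes had between 384 and 55268 counts in every library. The markers of excitatory cortical neurons summed to 2541 to 2926 CPM, with Slc17a7 at 787 to 908 CPM. Markers of striatal projection neurons summed to 19.9, 43.9 and 101 CPM in heterozygous 1 to 3 and to 16.7, 44.2 and 251 CPM in wild type 1 to 3. The oligodendrocyte markers Mbp (log2 difference 0.39, SE 0.17), Mog (0.35, SE 0.19) and Mobp (0.23, SE 0.18) were fitted higher in the heterozygous libraries, with overlapping groups, and all 4 astrocyte, 4 microglial, 2 oligodendrocyte precursor, 4 endothelial, 3 pericyte and 4 meningeal markers were fitted lower. Astrocyte markers summed to 936 to 1043 against 1067 to 1124 CPM, pericyte markers to 49.2 to 53.3 against 64.0 to 75.3 CPM and meningeal markers to 25.03 to 27.2 against 27.3 to 59.9 CPM, and the endothelial, oligodendrocyte precursor and microglial markers had median log2 differences of -0.31, -0.27 and -0.18. Their part in the results below was not tested. In bulk tissue, fewer cells of a type and less RNA per cell cannot be told apart.

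Many genes of this group have processed pseudogenes, intronless copies of their messenger RNA elsewhere in the genome, and 1 of those copies held more counts than the gene itself. The longest protein-coding transcript of each regulator in GENCODE M21 was compared with the pseudogenes. Matches over at least 200 bases at 95% identity or more were found for 14 of the 56 genes, 60 copies in all. A copy that matched several regulators was given to the regulator with the longest match, and copies of other transcripts may have been missed. To show how close the copies are, a stretch of coding sequence is printed for the 3 regulators whose copies held the most counts, with the same stretch of the copy below it. All are from GENCODE M21 transcripts on GRCm38, 5′ to 3′, and in each regulator an exon junction falls after base 50. Capitals mark the bases that differ between gene and copy, including 2 bases that the last copy has in addition.
Srsf5: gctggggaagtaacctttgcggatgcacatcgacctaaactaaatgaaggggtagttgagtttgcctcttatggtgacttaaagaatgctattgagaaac
Gm12966: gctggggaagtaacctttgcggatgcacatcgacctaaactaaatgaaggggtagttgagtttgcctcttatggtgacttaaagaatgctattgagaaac
Hnrnpk: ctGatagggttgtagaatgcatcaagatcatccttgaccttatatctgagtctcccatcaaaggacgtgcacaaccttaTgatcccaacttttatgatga
Gm7964: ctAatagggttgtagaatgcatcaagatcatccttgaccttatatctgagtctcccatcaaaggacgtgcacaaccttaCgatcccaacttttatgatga
Hnrnpc: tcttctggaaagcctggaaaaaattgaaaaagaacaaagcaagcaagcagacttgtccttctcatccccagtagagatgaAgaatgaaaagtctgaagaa
Gm12696: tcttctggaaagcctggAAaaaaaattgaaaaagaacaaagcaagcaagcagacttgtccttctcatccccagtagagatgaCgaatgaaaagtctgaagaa
The Srsf5 stretch and that of its copy are the same in every base, so a read that lies within it holds nothing that tells the gene from the copy. The Hnrnpk pair differs at 2 bases and the Hnrnpc pair at 3 alignment positions.

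Gm12966, the copy of Srsf5, lies on another chromosome, at chr4:129899093-129899902, plus strand, and matches over 810 bases with 8 mismatches (99.0%). It held a mean of 12494.5 counts per library beside 15187.8 for Srsf5. Its share of the Srsf5 count was 79.9%, 77.1% and 75.2% in heterozygous 1 to 3 and 79.0%, 87.2% and 99.7% in wild type 1 to 3. The wild type libraries spread further than the heterozygous ones, and the groups overlapped. Gm7964, at chr7:83755904-83757281, held 122.6% of the count of Hnrnpk, so the pseudogene was counted more often than the gene. Gm12696, at chr4:97521428-97522332 on the minus strand, held 72.7% of the count of Hnrnpc. Gm6159 held 56.2% of that of Hnrnpr, Gm4900 50.7% of that of Ptbp1 and the 27 copies of Hnrnpa3 together 95.6% of the Hnrnpa3 count. In all, copies held more than 10% of the parent's count for 12 regulators and more than 50% for 6. Of 59 processed pseudogene copies of these regulators, 9 (15.3%) had a mean of at least 1000 counts, beside 686 of 10236 processed pseudogenes in the tables (6.70%). The sets are unlike, since the 10236 were not filtered by identity or length of match to a parent, nor by the parent's level. Transcription of the copy and reads of the parent assigned to the copy cannot be told apart in gene counts. For the other 42 regulators this search assigned no copy.

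**Figure D1:**
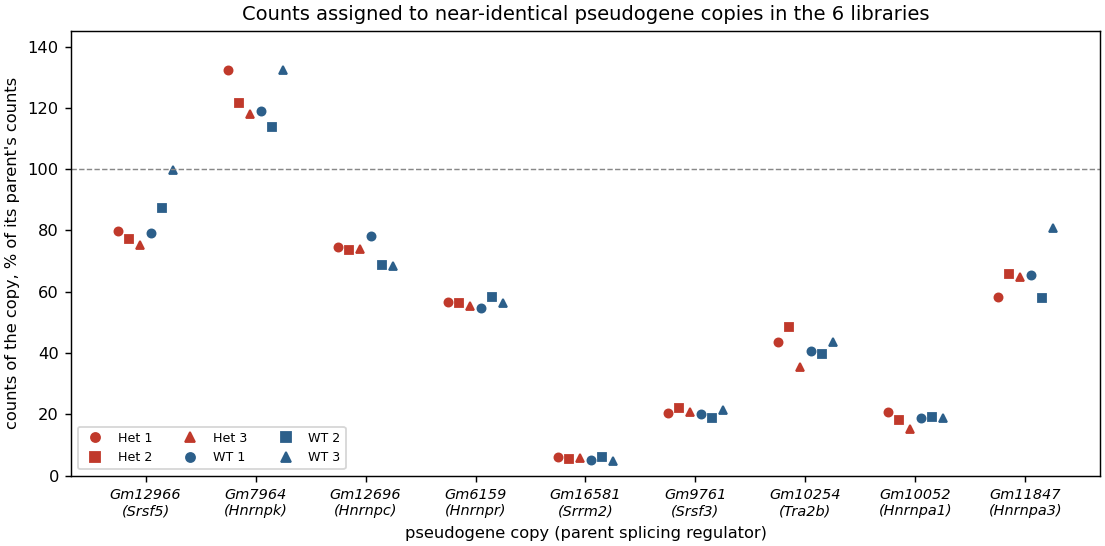
Counts of the 9 pseudogene copies with a mean of at least 1000 counts, as a percent of the counts of the splicing regulator they match (named in brackets), with 1 point per library (red heterozygous, blue wild type). Gm7964 lies above its parent Hnrnpk in every library, and Gm12966 reaches 99.7% of Srsf5 in wild type 3.

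Levels between genes are compared per length, as CPM per kb of the union of a gene's exons. Rbfox1, an activator and repressor of neuronal exons, was the highest of the 56, at 71.4 ± 3.83 in heterozygous and 67.5 ± 7.81 CPM per kb in wild type libraries (SD, n = 3 each). Celf4 followed at 53.0 ± 1.48 and 57.8 ± 5.16, Khdrbs3 at 51.9 ± 2.49 and 49.3 ± 2.71 and Hnrnpu at 51.9 ± 0.0383 and 46.2 ± 3.18. Over the 6 libraries the range of each of these 4 genes overlapped that of the next, while Rbfox1 lay above Khdrbs3 and Hnrnpu in every library and Celf4 lay above Khdrbs3 in every library. The lowest were Hnrnpr, Hnrnpf and Khdrbs2, with means over the 6 libraries of 2.59, 1.58 and 0.757 CPM per kb. The ranges of these last 3 did not overlap.

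The whole order was alike between libraries, with a Spearman rank correlation across the 56 genes from 0.972 to 0.998 over the pairs of libraries, which share their gene lengths. Dividing by the longest annotated transcript put Celf4 first (119.1), Rbfox1 next (99.8) and Srsf11 after that (76.7 CPM per kb), and the rank correlation of the new order with the first was 0.927. Adding the counts of the copies put Srsf5 first at 79.0 CPM per kb of exon, and it moved Hnrnpk from rank 33 to 11 and Hnrnpc from rank 26 to 10, so the order of these genes rests on how reads of the copies are assigned. Together the 56 genes took 0.840%, 0.837% and 0.836% of all counts in heterozygous 1 to 3 and 0.861%, 0.769% and 0.848% in wild type 1 to 3.

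**Figure D2:**
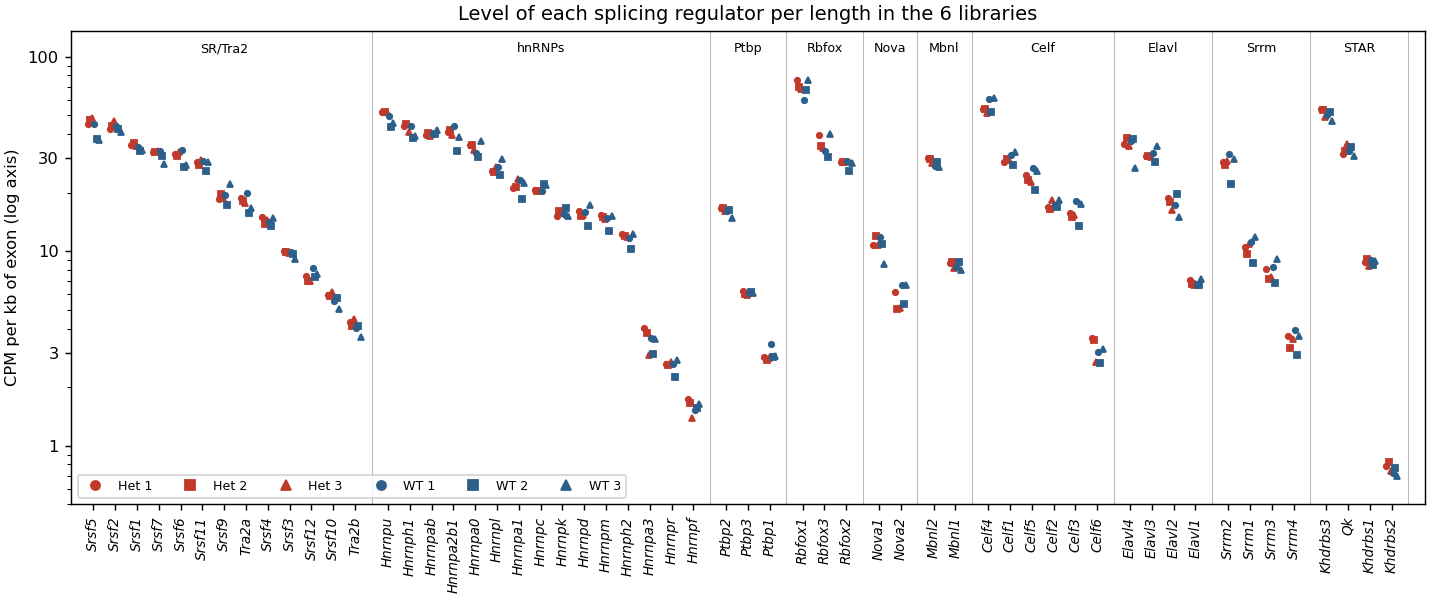
Level of each of the 56 splicing regulators per length (CPM per kb of exon, log axis), by family and from high to low within a family, with 1 point per library. The highest and lowest genes, Rbfox1 and Khdrbs2, stand at 69.5 and 0.757 CPM per kb on average, while the 6 libraries of a gene lie close together.

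Of the SR proteins and Tra2 relatives, 11 of 13 were fitted higher in the heterozygous libraries, with a median log2 difference of 0.06, beside 49.9% fitted higher over all genes tested. Srsf5 lies at chr12:80945504-80950507 on the plus strand. Its level was 179.3, 188.2 and 192.1 CPM in heterozygous 1 to 3 and 180.3, 149.7 and 148.3 CPM in wild type 1 to 3. Wild type 1 lay among the heterozygous libraries, and the other wild type libraries lay below all of them. The means were 186.5 ± 6.53 and 159.4 ± 18.1 CPM (SD, n = 3 each), and the log2 difference of 0.23 (SE 0.08) corresponds to 117% of wild type (95% interval 102.6% to 133.4%). Its unadjusted p was 0.0238 and its edgeR adjusted p 0.831. It ranked 799th among all genes tested. The exact permutation test gave p = 0.2 (two-sided), where 3 against 3 cannot go below 0.1.

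The copy of Srsf5 gave a smaller difference. Gm12966 stood at 143.2, 145.05 and 144.5 CPM in heterozygous and 142.4, 130.5 and 147.8 CPM in wild type libraries, a log2 difference of 0.04 (SE 0.06, edgeR adjusted p = 0.945). With the copy's counts added to the gene, Srsf5 was at 321.9, 332.6 and 336.3 against 323.8, 280.4 and 296.2 CPM. The difference was then 0.14 (SE 0.07, edgeR unadjusted p = 0.0776), under a counting chosen after the data were seen. With the copy added, Srsf5 no longer passed the unadjusted threshold. Counted apart from the copy, its edgeR unadjusted p was 0.0676 without heterozygous 2, 0.0774 without heterozygous 3, 0.0810 without wild type 2 and 0.0563 without wild type 3. Without wild type 1 the difference was 0.32 (edgeR unadjusted p = 0.00155, adjusted p = 0.555).

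Srsf1, the founding SR protein, at chr11:88047373-88053755 (plus strand), was at 199.8, 205.1 and 198.1 CPM in heterozygous and 195.9, 187.4 and 188.6 CPM in wild type libraries. The groups did not overlap, but the gap between them was narrow, and the log2 difference was 0.08 (SE 0.06, edgeR adjusted p = 0.887). Srsf10, which as a dephosphorylated protein acts as a splicing repressor in heat shock and mitosis, lies at chr4:135855747-135869908 (plus strand). It was at 41.8, 41.1 and 43.3 against 38.9, 40.2 and 35.5 CPM, again without overlap, with a log2 difference of 0.14 (SE 0.07, edgeR adjusted p = 0.864). For both, the exact permutation p was 0.1, the smallest the design allows.

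Tra2b, an SR-like activator of exons with GAA repeats, was the lowest of its family per kb of exon, at a mean of 4.11 CPM. By longest annotated transcript Srsf12 was lower, at 7.97 beside 9.23 CPM per kb for Tra2b. Tra2b stood at 39.7, 37.9 and 41.4 CPM in heterozygous and 37.2, 38.1 and 33.4 CPM in wild type libraries. The groups overlapped (log2 difference 0.13, SE 0.07, edgeR adjusted p = 0.864). With its 4 copies added, the groups parted, at 57.2 ± 0.508 and 52.4 ± 3.04 CPM (SD, n = 3 each), with the same log2 difference of 0.13. The remaining 9 members, Srsf2, Srsf3, Srsf4, Srsf6, Srsf7, Srsf9, Srsf11, Srsf12 and Tra2a, ran from -0.11 for Srsf12 to 0.11 for Srsf6. The groups overlapped in each of them. Exons of Srsf4 and Srsf2 overlap those of other genes over 43.0% and 25.3% of their bases, so reads there may have been shared or lost.

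**Figure D3:**
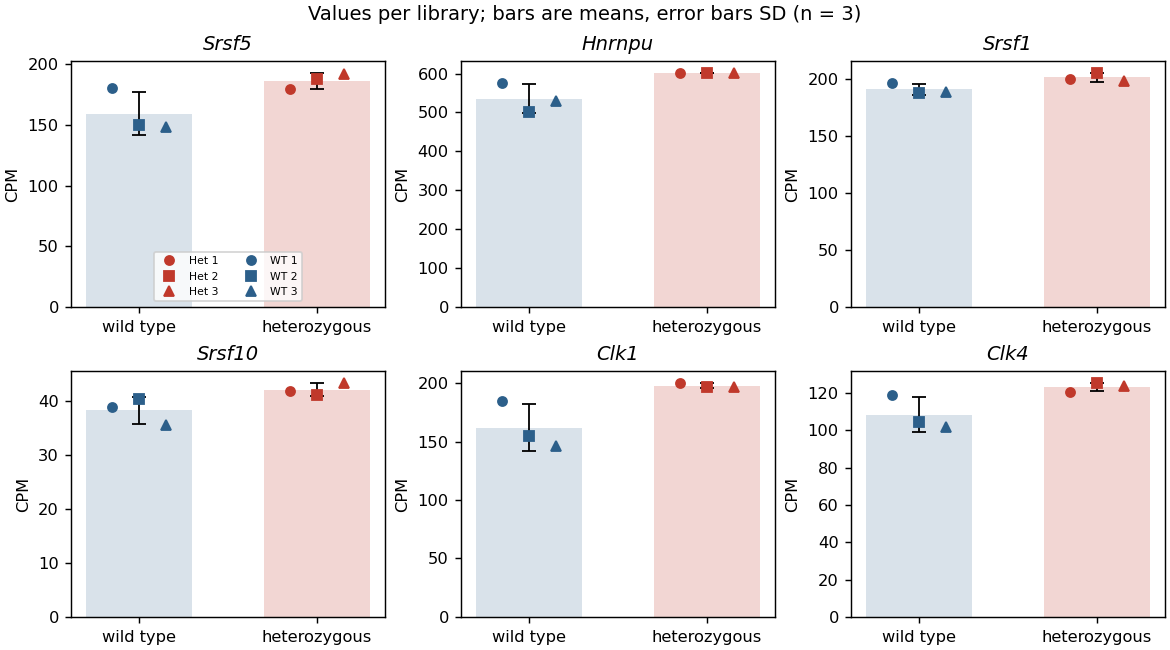
Levels in CPM of 4 splicing regulators and of the SR protein kinases Clk1 and Clk4 in wild type (blue) and heterozygous (red) libraries, with bars for the mean, error bars for the SD (n = 3) and 1 point per library. Wild type 1 stands closest to the heterozygous libraries in Srsf5, Hnrnpu, Srsf1, Clk1 and Clk4.

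Among the hnRNPs, 11 of 15 were fitted higher, with a median of 0.05. Hnrnpu, a large nuclear matrix protein that binds RNA and chromatin, lies at chr1:178321108-178337797 on the minus strand and was the most abundant hnRNP per length. Its level was 601.2, 601.9 and 602.0 CPM in heterozygous 1 to 3 and 575.2, 502.1 and 530.2 CPM in wild type 1 to 3. The heterozygous libraries were nearly equal, and the wild type libraries spread below them. The means were 601.7 ± 0.445 and 535.8 ± 36.9 CPM (SD, n = 3 each), the log2 difference was 0.17 (SE 0.07) and the heterozygous level was 112% of wild type (95% interval 101% to 125%). The unadjusted p was 0.0355, the edgeR adjusted p 0.844 and the exact permutation p 0.1. In edgeR the unadjusted p was 0.0873, 0.0990 and 0.0709 without heterozygous 1, 2 and 3 and 0.112 without wild type 2, and the difference then ran from 0.12 to 0.17. Without wild type 1 the difference was 0.22 (edgeR unadjusted p = 0.0154, adjusted p = 0.705), and without wild type 3 it was 0.16 (unadjusted p = 0.0394, adjusted p = 0.722).

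Hnrnpf, a G-run binding protein, was the lowest hnRNP per length. It was at 5.28, 5.03 and 4.22 CPM in heterozygous and 4.67, 4.75 and 4.99 CPM in wild type libraries (log2 difference 0.01, SE 0.12, edgeR adjusted p = 0.993). Heterozygous 3 was the lowest library and heterozygous 1 the highest. The other 13 hnRNPs ran from -0.07 for Hnrnpc to 0.10 for Hnrnpa3, with overlapping groups in all of them. With its copy added, Hnrnpc was lower in every heterozygous library, at 153.2 ± 1.65 against 159.5 ± 2.64 CPM (SD, n = 3 each, log2 difference -0.06, SE 0.06), where 6.16% of all genes lay wholly below under that counting. Hnrnpk, which binds C-rich RNA, was at -0.01.

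The families whose members are mostly neuronal leaned neither way as a whole: 14 of 28 were fitted higher and the median was 0.00. The polypyrimidine tract proteins include Ptbp1, which holds back neuronal exons in other cells and is low in neurons, and Ptbp2, its neuronal relative. Ptbp1 was at 13.6, 13.1 and 13.4 CPM in heterozygous and 15.7, 13.5 and 13.6 CPM in wild type libraries (log2 difference -0.09, SE 0.09, edgeR adjusted p = 0.906). Wild type 1 was the high library, and the others lay within a narrow range. Ptbp2 was at 152, 153 and 148 against 147, 150 and 136 CPM (log2 difference 0.07, SE 0.06, edgeR adjusted p = 0.901), and Ptbp3 was at -0.01. Per kb, the level of Ptbp1 was 0.172, 0.165 and 0.175 of that of Ptbp2 in heterozygous libraries and 0.207, 0.174 and 0.194 in wild type, with overlap between heterozygous 3 and wild type 2. The ratio rests on the counting. With its copy added, Ptbp1 averaged 4.39 beside 16.1 CPM per kb for Ptbp2, and by longest annotated transcript, without the copy, 4.36 beside 36.5. Exons of Ptbp1 overlap those of other genes over 20.7% of their bases.

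All 3 Rbfox genes were fitted higher, with a median of 0.06. Rbfox1 was at 333, 309 and 301 CPM in heterozygous and 263, 296 and 332 CPM in wild type libraries (log2 difference 0.08, SE 0.09, edgeR adjusted p = 0.918). Wild type 3 was level with the highest heterozygous library. Rbfox2, the most widely expressed of the family, was at 234, 235 and 234 against 236, 209 and 232 CPM (log2 difference 0.05, SE 0.07), and Rbfox3, the antigen of the NeuN antibody that marks neuronal nuclei, was at 0.06. Without wild type 3 the family median was 0.17. Rbfox1 (0.17) and Rbfox3 (0.19) then passed an unadjusted p of 0.05, beside 2.93% of all genes higher, and neither passed the adjusted threshold. Striatal markers were highest in that library, as given above, and their part in this was not tested.

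Nova1 and Nova2 bind clusters of YCAY repeats and shape exons of inhibitory and other synaptic transcripts. Nova1 was at 94.0, 104.7 and 94.4 CPM in heterozygous and 103.7, 95.3 and 75.4 CPM in wild type libraries (log2 difference 0.09, SE 0.11, edgeR adjusted p = 0.919). Its lowest value was in wild type 3, and without that library the difference was -0.03. Nova2 had the largest fitted decrease of the 56, with 51.8, 42.4 and 42.5 CPM in heterozygous and 56.4, 44.5 and 56.1 CPM in wild type libraries (log2 difference -0.20, SE 0.11, edgeR adjusted p = 0.864). Heterozygous 1 lay among the wild type libraries. Of the exon bases of Nova2, 31.7% are shared with the overlapping gene Gm26821. Mbnl2, a brain muscleblind protein that promotes adult exon patterns, was at 361, 357 and 341 against 328, 346 and 324 CPM (log2 difference 0.09, SE 0.06, edgeR adjusted p = 0.884). Mbnl1 was at 163, 164 and 153 against 155, 164 and 150 CPM (log2 difference 0.04, SE 0.06), and both genes overlapped between genotypes.

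The Celf genes, which bind GU-rich RNA, were the family with the lowest median, at -0.06, and 5 of 6 were fitted lower. Celf4 was at 463, 462 and 440 CPM in heterozygous and 520, 445 and 524 CPM in wild type libraries (log2 difference -0.13, SE 0.08, edgeR adjusted p = 0.872). Wild type 2 lay among the heterozygous libraries, and the other wild type libraries lay above all of them. Celf6 was the exception in direction and the lowest of the family per length, at 12.9, 12.7 and 9.70 against 11.01, 9.59 and 11.3 CPM (log2 difference 0.14, SE 0.13, edgeR adjusted p = 0.900). Without heterozygous 3, the low library of its group, the difference of Celf6 was 0.26 (edgeR unadjusted p = 0.0439). Celf1, Celf2, Celf3 and Celf5 ran from -0.09 to -0.03.

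The Elavl proteins are AU-rich element binders, of which Elavl1 is found in all cells and Elavl2, Elavl3 and Elavl4 mainly in neurons. Elavl1 was at 73.7, 70.2 and 69.0 CPM in heterozygous and 69.6, 69.6 and 74.7 CPM in wild type libraries (log2 difference -0.01, SE 0.06, edgeR adjusted p = 0.993). Elavl4 was at 191, 206 and 188 against 198, 203 and 144 CPM (log2 difference 0.10, SE 0.12, edgeR adjusted p = 0.920). Its low value was again wild type 3, and without it the difference was -0.04. Elavl2 and Elavl3 stood at 0.02 and -0.05. Among the Srrm genes, Srrm4 is the activator of neuronal microexons, Srrm3 its relative, and Srrm1 and Srrm2 are general splicing factors rich in arginine and serine. Srrm2 was at 368, 356 and 372 CPM in heterozygous and 405, 283 and 384 CPM in wild type libraries (log2 difference 0.03, SE 0.12). All heterozygous values lay between those of wild type 2 and the other wild type libraries. Srrm3 was at 51.6, 45.8 and 47.2 against 53.3, 44.2 and 58.5 CPM (log2 difference -0.11, SE 0.10, edgeR adjusted p = 0.904), and Srrm4 at 31.8, 27.6 and 30.5 against 34.1, 25.5 and 31.8 CPM (log2 difference -0.02, SE 0.11). The groups overlapped in both, as they did in Srrm1 (-0.03).

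Of the STAR proteins, Khdrbs3 and Khdrbs2 bind U- and A-rich repeats and act on neurexin exons, and Qk is a regulator of myelin transcripts. Khdrbs3, the highest per length, was at 197, 194 and 180 CPM in heterozygous and 183, 190 and 170 CPM in wild type libraries (log2 difference 0.07, SE 0.07, edgeR adjusted p = 0.907). Khdrbs2, the lowest of all 56 per kb, was at 8.09, 8.502 and 7.61 against 7.46, 7.92 and 7.17 CPM (log2 difference 0.10, SE 0.10). Both groups overlapped. Qk was at 452, 469 and 509 against 467, 486 and 440 CPM (log2 difference 0.04, SE 0.07), a gene also used by oligodendrocytes, whose marker Mbp was at 3508, 4251 and 5626 against 2869, 3959 and 3362 CPM in the same libraries. Khdrbs1 was at -0.01.

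**Figure D4:**
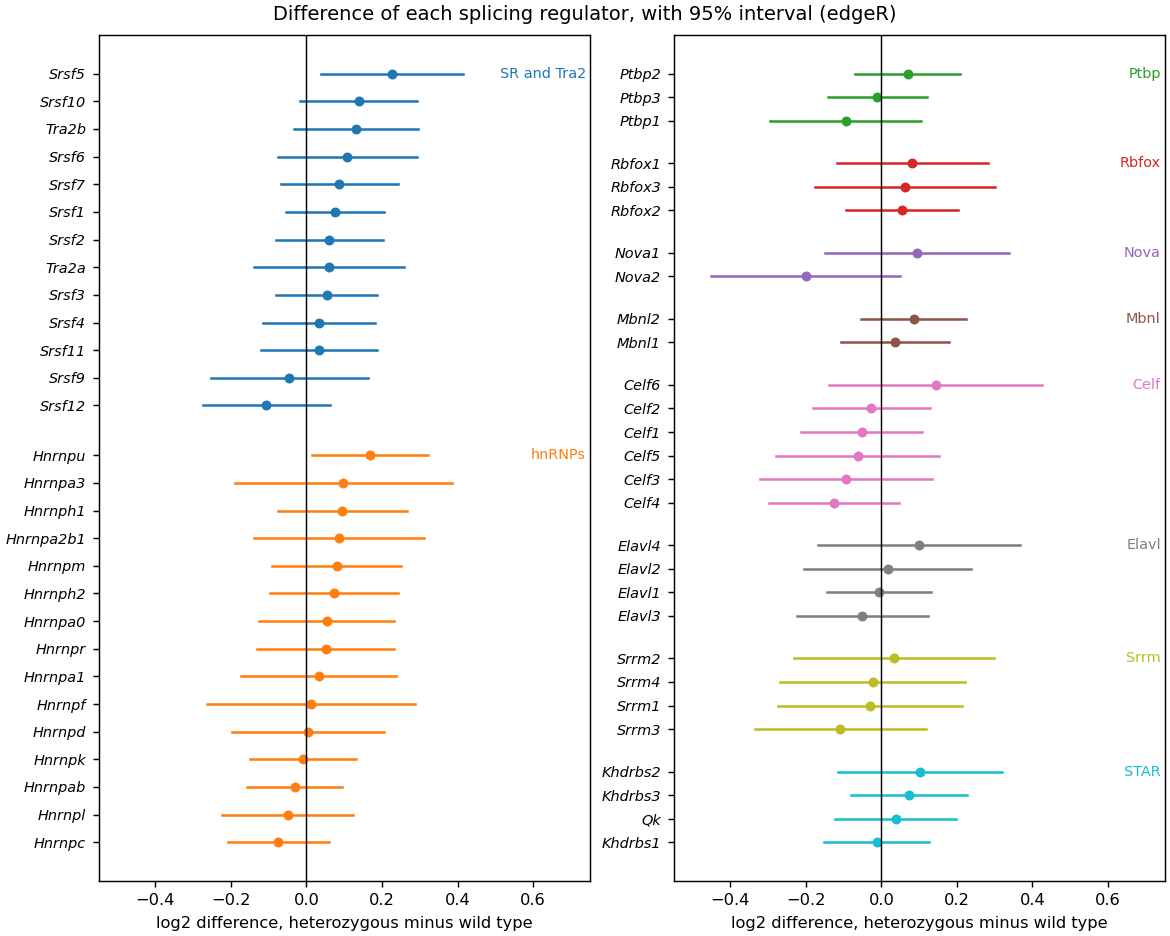
Log2 difference (heterozygous minus wild type) of each of the 56 splicing regulators from edgeR, as a point with its 95% interval (horizontal line), by family. The intervals of Srsf5 and Hnrnpu lie above 0 before adjustment, and those of all other genes include 0.

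Wild type 2 was often the lowest library in this group of genes, and in some related lists as well. It was the lowest of the 6 libraries in 27 of the 56 regulators (48.2%), beside 18.3% of all genes tested and 21.4% of the 13782 genes at least as abundant as the lowest regulator. It was the lowest in 10 of 15 hnRNPs, 4 of 6 Celf genes and 4 of 4 Srrm genes, but in none of the Ptbp, Nova, Mbnl and STAR genes. In the lists described below, wild type 2 was lowest in 60% of nonsense-mediated decay and exon junction genes and 47.8% of further RNA-binding proteins. The share was 32.8% for the spliceosome list, 27.3% for SR kinases and phosphatases, 27.8% for immediate early genes and 0% for cold-inducible proteins. Wild type 3 was the lowest in 16 of the 56, beside 25% of all genes tested. Averaged over the 56 genes as log2 CPM and set to 0 at the mean of the wild type libraries, heterozygous 1 to 3 stood at 0.06, 0.03 and 0.01 and wild type 1 to 3 at 0.06, -0.08 and 0.02. For the Srrm genes it was 0.03, -0.10 and 0.00 against 0.13, -0.27 and 0.14. For the SR proteins it was 0.07, 0.05 and 0.08 against 0.08, -0.05 and -0.03. In all 10 families the values of the genotypes overlapped.

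Wild type 2 also had the highest share of counts in mitochondrial genes, 9.58% beside 7.47% to 9.07% in the other libraries, and the highest share in its 10 most abundant genes, 11.3% beside 8.77% to 10.6%. The part of these shares in the lower values was not tested. Without wild type 2 the median over the 56 was -0.01. At an unadjusted p under 0.05, 6 of the 56 were then lower, a larger share than the 5.13% of all genes. These were Nova2 (-0.31), Celf3 (-0.22), Srrm3 (-0.22), Celf4 (-0.20), Celf5 (-0.17) and Srrm1 (-0.16), and Srsf10 (0.17) was higher, beside 3.76%. None passed the adjusted threshold. The groups then lay apart with lower heterozygous values in 13 of the 56 regulators, a larger share than the 13.5% of all genes. They lay apart with higher values in 7 of the 56, beside 12.8%.

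**Figure D5:**
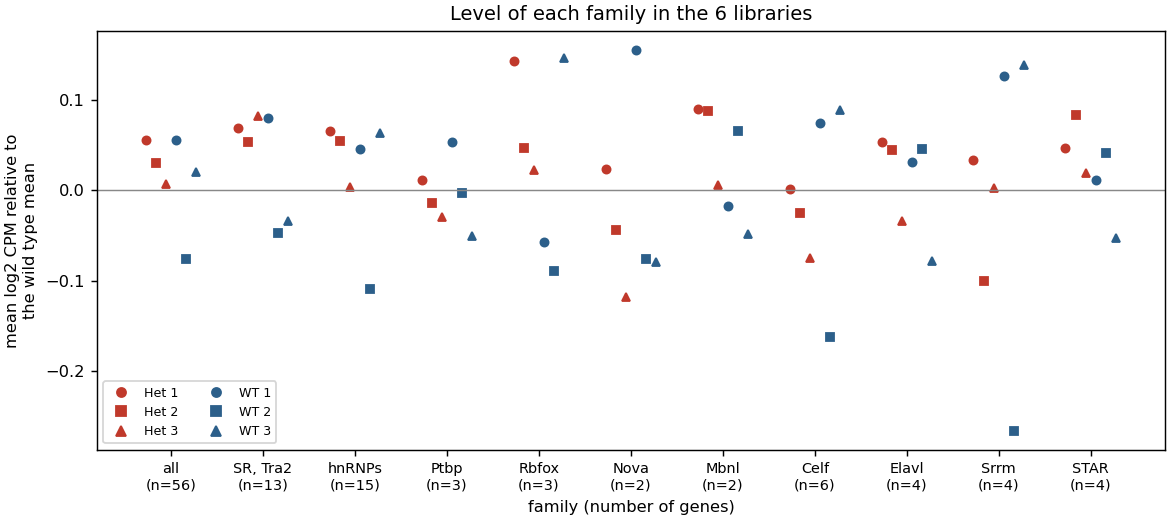
Mean log2 CPM of all 56 splicing regulators and of each family in the 6 libraries, with the average of wild type set to 0 (line). Wild type 2 (blue squares) is lowest for the Srrm, Celf and hnRNP genes, at -0.27, -0.16 and -0.11, and the genotypes overlap in every family.

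The share that a gene takes of its family's summed level per kb does not depend on the scaling of libraries. Of the 56 shares, 7 had groups that did not overlap (12.5%), near the 11.7% of all genes tested whose CPM did not overlap in either direction. Of the 7, Mbnl1 and Mbnl2 are complements and count as 1 observation. Srsf5 took 15.7% ± 0.391 of the SR family in heterozygous and 14.2% ± 0.807 in wild type libraries, and Srsf12 2.41% ± 0.0996 and 2.74% ± 0.0257. Hnrnpu took 15.1% ± 0.190 and 13.9% ± 0.524 of the hnRNPs. Srsf5 and Hnrnpu were the higher and Srsf12 the lower in heterozygous libraries. Ptbp2 took 65.0% ± 0.455 and 63.2% ± 1.07 of its family, Mbnl2 77.5% ± 0.211 and 76.9% ± 0.224, and Celf4 37.4% ± 0.671 and 38.7% ± 0.184 (SD, n = 3 each). The two-sided exact permutation p was 0.1 for each of the 7, the smallest possible with 3 against 3, so no share could pass 0.05.

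Annotated decay transcripts are a feature of these genes that did not enter their choice. GENCODE M21 lists at least 1 transcript marked for nonsense-mediated decay for 31 of the 56 (55.4%), beside 26.1% of 16251 protein-coding genes tested. The share was 11 of 13 for SR proteins and Tra2 relatives, 7 of 15 for hnRNPs, 3 of 3 for Ptbp and 4 of 4 for Srrm genes. It was 3 of 6 for Celf and 3 of 4 for STAR genes, and none was listed for Rbfox, Nova, Mbnl or Elavl genes. A retained-intron transcript was listed for 40 of 56 (71.4%), beside 52.7%. The regulators had a median of 9.5 annotated transcripts against 5. Gene counts sum over all of these, so a shift between productive and decay transcripts is not seen in them.

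Kinases and phosphatases that set the activity of SR proteins were also read from the fit. Of 11 tested, 2 were higher at an unadjusted p under 0.05 (beside 2.44% of all genes) and none lower (beside 3.38%), with a median of 0.03. Clk1, a kinase of SR proteins whose own intron retention responds to stress and activity, was at 200.2, 197.0 and 196.5 CPM in heterozygous and 185.1, 154.9 and 146.0 CPM in wild type libraries (log2 difference 0.29, SE 0.09, edgeR adjusted p = 0.797). Clk4 was at 120.7, 125.2 and 123.7 against 119.2, 104.7 and 101.6 CPM (log2 difference 0.18, SE 0.07, edgeR adjusted p = 0.844). As in Srsf5 and Hnrnpu, wild type 1 was nearest to the heterozygous libraries, though in both kinases the groups stayed apart. Prpf4b was at 0.13 (SE 0.06), with overlapping groups.

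Among 58 genes of the spliceosome and associated proteins, 3 were higher at an unadjusted p under 0.05 (beside 2.44% of all genes). At that threshold 1 was lower (beside 3.38%), and the median of the list was 0.01. The higher ones were Luc7l3 (0.25, SE 0.09), a U1-associated SR-like protein, Prpf39 (0.17, SE 0.07), another U1 factor, and Sf3b1 (0.16, SE 0.07), the U2 subunit that holds the branch point. The lower one, Sap18 (-0.15, SE 0.07), was picked out after its value was seen. Among 46 further hnRNPs and RNA-binding proteins tested of 47, with a median of 0.01, Sfpq was higher (0.18, SE 0.07) and the pseudogene Hnrnpa1l2-ps2, at under 1 CPM in every library, was lower (-0.75, SE 0.32), while Rbms3 was at -0.27 (SE 0.13). None of 15 genes of nonsense-mediated decay and the exon junction complex passed the unadjusted threshold, with Magoh and Eif4a3 at 0.12 and -0.13. No gene of these lists was called at an adjusted p under 0.05.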

How the data were processed

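Each library has 1 table of raw counts per gene, deposited by the authors without normalization. The submitters' processing notes name Bowtie2 2.3.4.3 and featureCounts, beside FastQC and DESeq2, and the builds mm10 and GRCm38.p6. For their settings, strand use and handling of reads with several matches, the sources used here give nothing. Per the labels' protocols, RNA was extracted with Trizol, treated with DNase I and prepared with a TruSeq RNA v2 kit, which does not mark strand. Bowtie2 does not by itself split a read across an intron, which matters for genes with intronless copies, and its part in these counts was not tested.

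All 55450 identifiers matched GENCODE M21. Genes were kept by filterByExpr (minimum count 10, minimum total 15), which left 27939 with all 56 regulators among them. After TMM scaling, counts were tested with edgeR 4.0.16 (glmQLFit, glmQLFTest) in R 4.3.3 over 3 heterozygous and 3 wild type libraries, with no covariate. P-values were adjusted by Benjamini-Hochberg over all genes tested, and called under 0.05. The common dispersion corresponded to a biological coefficient of variation of 16.1%. CPM uses effective library sizes, and list levels use log2 CPM with a prior count of 1. The procedure was tested on simulated data. Pairs of libraries differed by a chi-square per gene of 10.9 to 85.2, so none was counted as a repeat deposit. Replicate numbers follow record order and pair nothing. Limma 3.58.1 and DESeq2 1.42.0 served as alternatives, with other scalings, filters and libraries left out.

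The regulators and the further lists were chosen with earlier results of these data known. Values per library are given for Setd5, for regulators at an unadjusted p under 0.05 or with groups that do not overlap, for the highest and lowest of each family per kb, for the smallest p of a family with none of the former, and for Qk, which was added for its use in oligodendrocytes. The 3 smallest p of each further list are named, except that 1 gene of these, and 1 cell type marker, are not reported here. Protein sequences were not used here.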

Additional observations from a re-analysis of the deposited data

How the results depend on the processing

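No regulator was called at an adjusted p under 0.05 or 0.1 under any of 19 alternatives; the lowest adjusted p was 0.479. No paired analysis was possible because the labels carry no replicate numbers shared by the genotypes. Libraries were also left out 1 at a time. From 0 to 4 regulators were then higher at an edgeR unadjusted p under 0.05, beside 1.26% to 3.76% of all genes. The count of 4 came without wild type 1 and without wild type 3, where 3.17% and 2.93% of all genes were higher. From 0 to 6 regulators were lower, beside 1.81% to 5.13% of all genes. The count of 6 came without wild type 2, where the share of all genes was 5.13%. The number with groups apart ran from 4 to 11 (higher, beside 8.6% to 12.8% of all genes) and from 0 to 13 (lower, beside 8.86% to 13.5%), with fewer libraries to overlap. The Rbfox median ran from -0.00173 (without wild type 2) to 0.170 (without wild type 3). Without both libraries with high Xist counts (heterozygous 3 and wild type 3), 5 regulators were higher at an unadjusted p under 0.05. These were Hnrnpa0, Hnrnpa3, Rbfox1, Rbfox3 and Celf6, beside 3.4% of all genes. The groups then lay apart with higher heterozygous values in 17 regulators, a larger share than the 19.9% of all genes. They lay apart with lower values in 1, a smaller share than the 19.1% of all genes. The Rbfox median was then 0.200. With Xist as a term, an alternative chosen after seeing the data, Srsf5 and Hnrnpu again had an unadjusted p under 0.05.

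Scaling by library totals and the likelihood ratio test each left 1 regulator higher at an unadjusted p under 0.05 (Srsf5), beside 2% and 2.1% of all genes. Adding the pseudogene copies, also chosen after seeing the data, left 1 as well (Hnrnpu), beside 2.26%. Quality weights added 1 lower (Nova2), beside 4.96% of all genes lower. Groups apart with lower heterozygous values numbered 2 with upper quartile scaling, beside 6.71% of all genes. They numbered 1 each with library totals, with a filter of 1 CPM in 3 libraries and with copies added, beside 6.62%, 6.22% and 6.16%. Each of these counts was a smaller share of the regulators than the share of all genes. The order per kb had a rank correlation of 0.93 with that by longest transcript. Setd5 passed the adjusted threshold with every gene kept (0.0119), in DESeq2 (2.81e-07), in the likelihood ratio test (7.31e-05) and with quality weights (0.0307).

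Of the regulators given with values per library, Qk aside, the sign turned for 8, of which Srrm3 alone had a difference larger than its SE (-0.11, SE 0.10). Hnrnpf was at -0.00105 with upper quartile scaling, -0.00506 with totals, -0.0238 with copies added and -0.0590 to 0.0973 leaving out 1 library. Elavl1 was at 0.0113 with quality weights, 0.0465 without the high-Xist libraries and -0.0386 to 0.0278 leaving out 1. Srrm2 was at -0.00612 with quality weights and -0.113 to 0.133 leaving out 1. Without the high-Xist libraries Nova1 was at -0.00253, Elavl4 at -0.0159 and Srrm3 at 0.000556. Leaving out 1 library, Nova1 ran from -0.0262 to 0.195, Elavl4 from -0.0415 to 0.184, Srrm4 from -0.141 to 0.0668 and Rbfox2 from -0.00173 to 0.0881. The cause of these turns was not tested. The 95% intervals of the 56 differences had a median half-width of 0.17 on the log2 scale.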

Other observations

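Cold-inducible RNA-binding proteins and immediate early genes were read from the fit beside the splicing regulators, as lists chosen with earlier results of these data known. Rbm3, a cold-shock protein that also shapes splicing and translation, was at 27.7, 29.1 and 25.8 CPM in heterozygous 1 to 3 and 26.2, 21.6 and 17.2 CPM in wild type 1 to 3 (log2 difference 0.35, SE 0.13, edgeR unadjusted p = 0.0287, adjusted p = 0.844). Its relative Cirbp was at 34.5, 38.0 and 44.7 against 32.3, 34.2 and 37.2 CPM (log2 difference 0.18, SE 0.10). The groups overlapped in both. All 18 immediate early genes, which neurons switch on with activity, were fitted higher in the heterozygous libraries (beside 49.9% of all genes tested), 11 of them at an unadjusted p under 0.05 (beside 2.44%), with a median of 0.61 and none called after adjustment. Nptx2 (0.62, SE 0.12), Npas4 (0.79, SE 0.23) and Ier5 (0.44, SE 0.14) had the smallest p. The mean level of the list, relative to wild type, was 0.85, 0.89 and 0.18 in heterozygous 1 to 3 and 0.49, -0.12 and -0.37 in wild type 1 to 3. Wild type 1 was the highest wild type library in this list, as it was in Srsf5, Hnrnpu, Clk1 and Clk4, and whether these levels are related was not tested.

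By gene length, 11 of the 14 regulators that span over 100 kb were fitted higher (median 0.06), against 25 of 42 shorter ones (median 0.03), and this difference was not tested.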
